A study of Homo sapiens with 15 samples.

Results

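Imprinted genes were followed as a group of 35 named genes out of the 58735 genes in the tables. The members came from a list of imprinted genes, matched by GENCODE v29 symbol to the Ensembl identifiers of the tables and placed in 19 imprinted domains. All 35 had at least 1 identifier, and IGF2 had 2. Levels are FPKM, fragments per kilobase of exon scaled to the size of each library, so they may be compared between genes of different length.

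Imprinting leaves a parent-of-origin mark of DNA methylation on a control region, so that only the copy from the mother or only the copy from the father is transcribed. Many imprinted genes act on growth: IGF2 drives it, while CDKN1C, PHLDA2, GRB10 and IGF2R restrain it. Once a mark is set it is copied at each cell division by DNMT1 with UHRF1, and zinc finger proteins with TRIM28 protect it in the early embryo. FPKM sums the RNA of all copies of a gene, so the parental copies could not be separated here.

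The libraries came from HEK293T, an aneuploid human embryonic kidney line used in the study as supporting cells for U937 leukemia cells. A lentiviral CRISPR vector (lentiCRISPRv2) targeted C9orf89 (CARD19), MAGI2, MLPH or RHBDD2, and after puromycin selection a clone was grown out by limiting dilution. The 4 knockout clones are called RHBDD2-CKO, MLPH-CKO, MAGI2-CKO and C9orf89-CKO, and the fifth group, Non-target, was transduced with a guide that has no target gene. Each group was 1 clone, sampled in 3 wells of six-well plates without U937 cells or drug, for 15 libraries in all. The effect of the knockout and the difference between any pair of clones therefore cannot be told apart. The p-values below measure only the spread between wells of a clone, and the 4 comparisons with Non-target share the same 3 Non-target wells.

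The depth recovered from the FPKM values was 15517856 to 19489918 fragments per library, with a median of 17666063. The wells numbered 1 stood apart from the others in every group. Over genes with at least 10 fragments, pairs of libraries that included well 1 differed by a chi-square of 14.6 to 24.8 per gene, against 2.40 to 6.54 for wells 2 and 3. Results that rest on those wells are given with and without them.

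The knocked-out genes were read first. RHBDD2 was 27.4, 38.1 and 34.9 FPKM in the Non-target wells and 11.2, 13.5 and 12.4 FPKM in the RHBDD2-CKO wells (log2 fold change −1.42 ± 0.14 (SE, n = 3 per group), limma adjusted p = 7.56e-06). It also fell in MAGI2-CKO, to 11.7, 13.8 and 16 FPKM (−1.27 ± 0.14, adjusted p = 1.55e-05). C9orf89 was 5.70, 7.71 and 6.27 FPKM in the Non-target wells, and its own clone had 4.34, 4.27 and 4.34 FPKM (log2 fold change −0.58 ± 0.10, adjusted p = 0.000977). C9orf89 also fell in RHBDD2-CKO, to 4.79 FPKM ± 0.339 (SD, n = 3). MAGI2 averaged 0.115 FPKM ± 0.0108 over the Non-target wells and 0.0680 FPKM ± 0.0195 over those of MAGI2-CKO, and C9orf89-CKO had 0.0718 FPKM ± 0.00455, so MAGI2 RNA did not single out its own clone. MLPH had no fragment in any of the 15 libraries and could check no label.

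The cell line was read from marker lists. All 8 HEK293T markers reached 0.5 FPKM, and their summed level ranged from 80.6 to 194 FPKM per library, with VIM the most abundant. The group mean of that sum was highest in MLPH-CKO (192 FPKM) and lowest in RHBDD2-CKO (84.3 FPKM), with 145 FPKM in C9orf89-CKO, 135 in Non-target and 130 in MAGI2-CKO. No gene of the 10 U937 markers reached 0.5 FPKM, the summed level stayed between 0.0616 and 0.618 FPKM, SPI1 was the most abundant at up to 0.398 FPKM and MPO was at 0. Of 10 mesenchymal stromal markers 4 reached 0.5 FPKM, led by COL1A1 at 2.24 to 5.42 FPKM, with a summed level of 3.46 to 6.48 FPKM. The part of these markers in the results below was not tested.

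Of the 35 imprinted genes, 18 reached 0.5 FPKM in at least 3 libraries and entered the test with 16175 genes in all. The other 17 stayed below, 9 of them with some fragments and 8 at 0 in every library. GNAS was the most abundant member, with a mean of 87.2 FPKM over the 15 libraries, followed by GRB10 with 10.4 FPKM, and 6 tested members averaged under 1 FPKM. MKRN3, GNAS-AS1 and DIRAS3 passed the filter through wells of only 2 groups each, so a difference was built into their passing.

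Against Non-target, 6 tested members changed in C9orf89-CKO, 3 up and 3 down (33.3% of the 18, beside 26.0% of all tested genes, 12.9% up and 13.1% down). In MAGI2-CKO 9 changed, 4 up and 5 down (beside 36.1% of all tested genes, 17.0% up and 19.1% down). In MLPH-CKO 6 changed, 4 up and 2 down (33.3%, beside 30.1%, 14.5% up and 15.5% down), and in RHBDD2-CKO 7 changed, 2 up and 5 down (38.9%, beside 34.1%, 17.4% up and 16.7% down). The median log2 fold change of the tested members was 0.00, −0.09, 0.20 and 0.09 in the same order, and that of all tested genes was between −0.01 and 0.00. These calls are by limma at an adjusted p of 0.05. Without MKRN3, GNAS-AS1 and DIRAS3, a choice made after the values were seen, 3, 7, 4 and 6 of 15 members passed, which was below the share of all tested genes in C9orf89-CKO and MLPH-CKO and above it in MAGI2-CKO and RHBDD2-CKO. Without the 5 wells numbered 1, the counts were 6, 10, 7 and 8 of 17 tested members (35.3%, 58.8%, 41.2% and 47.1%), beside 33.5%, 41.5%, 38.1% and 43.0% of all 15471 genes then tested. With the well number as a block, more members passed in C9orf89-CKO, MLPH-CKO and RHBDD2-CKO, and as many in MAGI2-CKO. The share of all tested genes rose in every clone under that block, and the counts are given in the last paragraph.

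**Figure D1:**
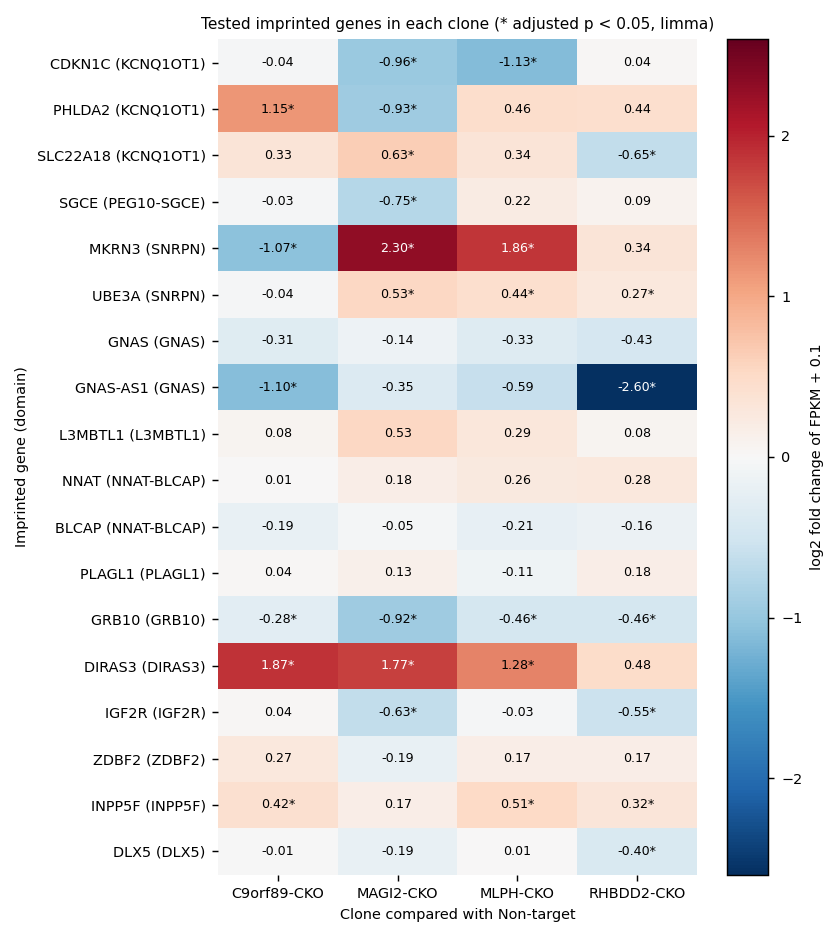
Log2 fold change of FPKM + 0.1 for the 18 tested imprinted genes (rows, with their domain) in each clone against Non-target (columns), with 3 wells per group. An asterisk marks an adjusted p under 0.05 in limma. The highest value was 2.30 for MKRN3 in MAGI2-CKO and the lowest −2.60 for GNAS-AS1 in RHBDD2-CKO.

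At least 1 clone differed from Non-target for 12 of the 18 tested members (66.7%), where 61.5% of all tested genes did, and for 9 of 15 (60.0%) without the 3 members whose difference was built in. GRB10 was the 1 member past the threshold in all 4 clones, lower in each. A stricter reading asked which group stood apart, that is, above all 4 others or below all 4 others, each time past the threshold. By that rule 6 of the 18 members (33.3%) set a group apart, beside 26.3% of all tested genes, and without those 3 members it was 4 of 15 (26.7%). PHLDA2, SGCE and GRB10 were lower in MAGI2-CKO than in every other group, where 4.84% of tested genes were likewise low. SLC22A18 and GNAS-AS1 were lower in RHBDD2-CKO (as were 5.88% of tested genes), MKRN3 was lower in C9orf89-CKO (0.828%), and GRB10 was also higher in Non-target than in every clone (3.26%).

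The KCNQ1OT1 domain held 3 tested genes, and each of them differed from Non-target in 2 clones. Of all tested genes 61.5% differed in at least 1 clone, and the share for 2 clones was not counted. This domain lies at the tip of chromosome 11, where the antisense RNA KCNQ1OT1 silences its neighbours on the paternal copy. CDKN1C (chr11:2883213-2885773, minus strand, GRCh38) encodes the cyclin-dependent kinase inhibitor p57. It was 3.07, 3.99 and 2.94 FPKM in the Non-target wells, 2.88, 3.18 and 3.61 in C9orf89-CKO, and 3.38, 3.48 and 3.37 FPKM in RHBDD2-CKO. It was 1.37, 2.02 and 1.61 FPKM in MAGI2-CKO and 1.5, 1.33 and 1.54 FPKM in MLPH-CKO. The wells therefore fell into a higher set of 3 groups and a lower set of 2 with no overlap. In limma the fall was −0.96 ± 0.14 on the log2 scale in MAGI2-CKO (adjusted p = 0.00018) and −1.13 ± 0.14 in MLPH-CKO (adjusted p = 7.39e-05). Both clones were also below C9orf89-CKO and RHBDD2-CKO, with adjusted p values between 3.6e-05 and 0.000467. In bulk RNA, fewer cells with the transcript and less transcript per cell cannot be told apart.

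PHLDA2 (chr11:2928273-2929455, minus strand), a small protein that limits placental growth, moved in opposite directions. The Non-target wells had 4.24, 7.03 and 6.15 FPKM, the C9orf89-CKO wells 11.2, 12.0 and 15.3 FPKM and the MAGI2-CKO wells 2.21, 3.40 and 3.38 FPKM. Every C9orf89-CKO well was above every well of the other groups, and every MAGI2-CKO well was below them. PHLDA2 rose by 1.15 ± 0.24 on the log2 scale in C9orf89-CKO (adjusted p = 0.00342) and fell in MAGI2-CKO, with a log2 fold change of −0.93 ± 0.24 (adjusted p = 0.00845, limma). MLPH-CKO, at 6.77, 7.84 and 9.08 FPKM, and RHBDD2-CKO, at 5.59, 9.52 and 8.62 FPKM, overlapped with Non-target. Without the wells numbered 1, PHLDA2 also passed in RHBDD2-CKO (0.46, adjusted p = 0.0209). With the well number as a block it was higher than Non-target in RHBDD2-CKO (0.44, limma adjusted p = 0.0116) and MLPH-CKO (0.46, adjusted p = 0.00979). C9orf89-CKO was 4.28-fold above MAGI2-CKO (log2 difference 2.07 ± 0.24, adjusted p = 5.01e-05).

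SLC22A18 (chr11:2899721-2925246, plus strand), a membrane transporter between those genes, was lowest in RHBDD2-CKO at 0.456, 0.689 and 0.509 FPKM. Non-target had 0.703, 1.08 and 0.976 FPKM, and MAGI2-CKO had the highest wells at 1.18, 1.61 and 1.62 FPKM. No RHBDD2-CKO well reached the lowest well of another group. The log2 fold change was −0.65 ± 0.20 in RHBDD2-CKO (adjusted p = 0.0264) and 0.63 ± 0.20 in MAGI2-CKO (adjusted p = 0.028, limma), and each call was lost in 6 of 25 alternatives, with adjusted p values up to 0.106 and 0.111. C9orf89-CKO averaged 1.17 FPKM and MLPH-CKO 1.19 FPKM, with neither past the threshold. With the well number as a block, MLPH-CKO passed (0.34, limma adjusted p = 0.0433).

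The 50 tested genes nearest to this domain had a median log2 fold change of 0.14 in MAGI2-CKO, −0.15 in MLPH-CKO, −0.04 in RHBDD2-CKO and 0.00 in C9orf89-CKO. CDKN1C lay 1.10 below that median in MAGI2-CKO and 0.98 below in MLPH-CKO, and PHLDA2 1.15 above it in C9orf89-CKO. KCNQ1OT1 itself gave only 2 to 82 fragments per library over 91667 exonic bases, with 30 fragments in Non-target and 158 in RHBDD2-CKO, 104 in MLPH-CKO and 97 each in C9orf89-CKO and MAGI2-CKO. All RHBDD2-CKO and MLPH-CKO wells were above all Non-target wells (20, 2 and 8 fragments), for which an exact two-sided permutation test gave p = 0.1, the smallest value that 3 against 3 wells allow. The library kit did not mark strand, so these fragments cannot be told from unspliced RNA of KCNQ1, the potassium channel gene on the other strand. KCNQ1, named after its values were seen, had 0.752 FPKM in Non-target and fell to 0.0842 FPKM in MLPH-CKO (log2 fold change −2.31, adjusted p = 0.000283) and to 0.246 FPKM in RHBDD2-CKO (−1.32, adjusted p = 0.0102). It was 0.409 FPKM in MAGI2-CKO (−0.76, adjusted p = 0.107) and 0.449 FPKM in C9orf89-CKO (−0.68, adjusted p = 0.174), with every well of both below every Non-target well. OSBPL5, at the edge of the same domain, fell from 2.27 to 1.06 FPKM in MLPH-CKO (−1.03 ± 0.14, adjusted p = 0.000183).

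**Figure D2:**
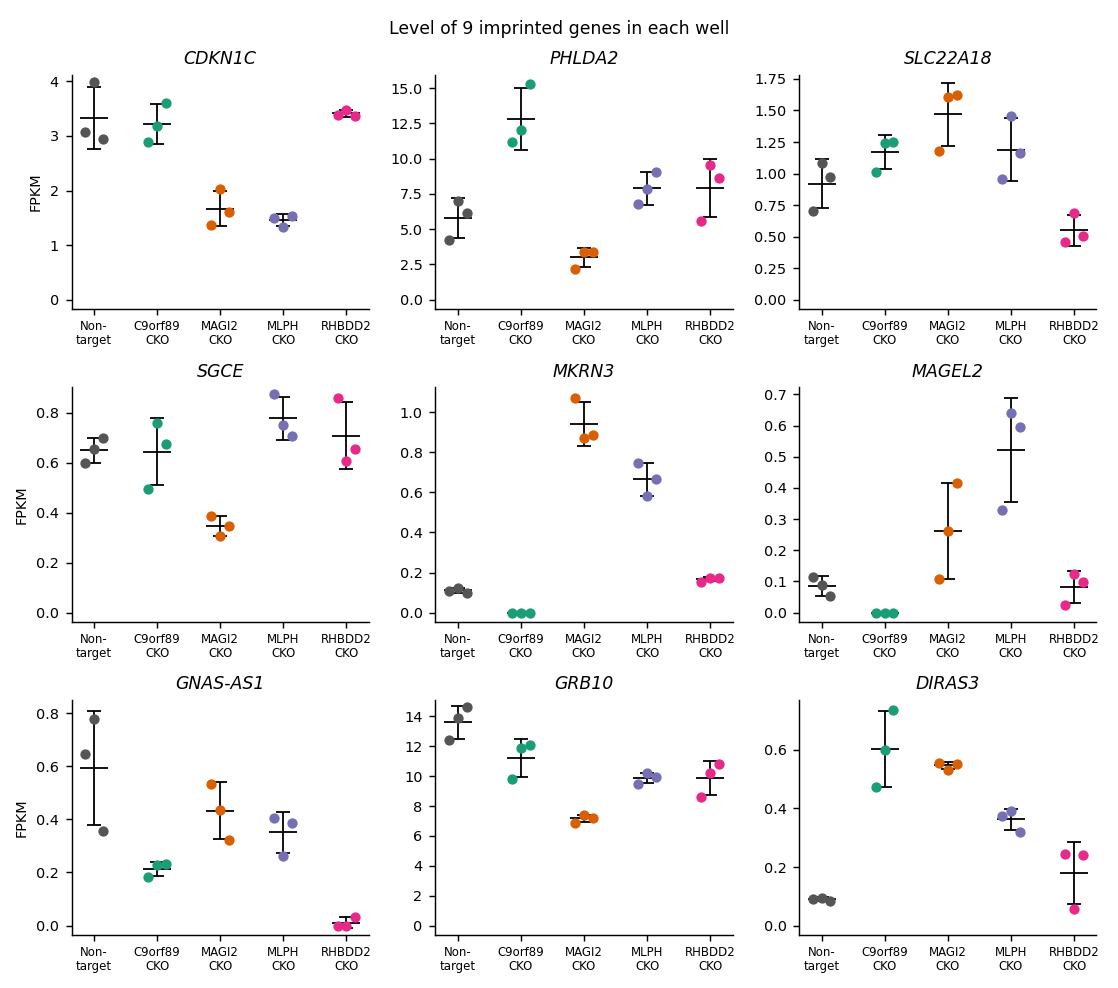
FPKM in each well (points, wells 1 to 3 from left to right) for 9 imprinted genes, with the group mean and SD over 3 wells (black bars). Groups are on the x axis. MKRN3 and MAGEL2 lie at 0 in all C9orf89-CKO wells, CDKN1C is low in MAGI2-CKO and MLPH-CKO, and GNAS-AS1 is near 0 in RHBDD2-CKO.

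The second domain with large differences between clones was the SNRPN domain of chromosome 15, the region of the Prader-Willi and Angelman syndromes. On its centromere side lie the paternally expressed genes MKRN3, which encodes a ring finger protein that delays puberty, MAGEL2, a MAGE-family partner of ubiquitin ligases, and NDN, which encodes necdin. Their promoters carry the methylation that follows the imprint, so the RefSeq promoters of the 2 genes that differed between clones are shown with every CG, the site of that methylation, in capitals. Each runs from 250 bases before to 50 after the start on GRCh38.p14: MKRN3 at chr15:23565424-23565723 on the plus strand with 15 CG, and MAGEL2 at chr15:23647818-23648117 on the minus strand with 9 CG.
MKRN3: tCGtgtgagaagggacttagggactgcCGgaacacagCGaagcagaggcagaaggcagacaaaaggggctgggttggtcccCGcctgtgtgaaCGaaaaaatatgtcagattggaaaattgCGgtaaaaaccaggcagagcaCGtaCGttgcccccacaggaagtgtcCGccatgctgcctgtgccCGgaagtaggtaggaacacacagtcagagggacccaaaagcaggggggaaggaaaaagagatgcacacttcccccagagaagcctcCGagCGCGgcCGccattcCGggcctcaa
MAGEL2: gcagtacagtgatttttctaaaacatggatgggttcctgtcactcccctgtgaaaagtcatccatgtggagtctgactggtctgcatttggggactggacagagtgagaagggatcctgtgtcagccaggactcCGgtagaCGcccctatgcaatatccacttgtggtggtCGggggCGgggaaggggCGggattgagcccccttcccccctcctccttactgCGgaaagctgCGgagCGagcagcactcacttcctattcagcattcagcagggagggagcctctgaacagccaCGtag
The median over 35116 promoters of this length was 14 CG, and 48.9% of them had at least as many as MKRN3. Methylation was not measured in these libraries.

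MKRN3 (chr15:23565674-23630075) had no fragment in 1 clone and was raised in 2 others. The C9orf89-CKO wells held 0 fragments, the Non-target wells 10, 11 and 10 (0.109, 0.124 and 0.0994 FPKM) and the RHBDD2-CKO wells 16, 17 and 16 (0.154, 0.175 and 0.171 FPKM). MAGI2-CKO had 119, 97 and 99 fragments (1.07, 0.872 and 0.884 FPKM) and MLPH-CKO 78, 63 and 70 (0.745, 0.583 and 0.666 FPKM). The 5 groups did not overlap in any pair. Taken against 3 fragments over the group as the floor for C9orf89-CKO, MKRN3 was at least 10.9-fold higher in Non-target, at least 16.4-fold in RHBDD2-CKO, at least 65.2-fold in MLPH-CKO and at least 92.4-fold higher in MAGI2-CKO. Floors cover counting error only.

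In limma MKRN3 rose by 2.30 ± 0.23 on the log2(FPKM + 0.1) scale in MAGI2-CKO (adjusted p = 8.55e-06) and by 1.86 ± 0.23 in MLPH-CKO (adjusted p = 7.32e-05). Only wells of these same clones took MKRN3 past the filter, so its p-values are not independent of the filter. The value for C9orf89-CKO depends on the pseudocount, since this clone had no fragments (−1.07 ± 0.23, adjusted p = 0.00446). That call was lost with a pseudocount of 1 (adjusted p = 0.141), with only the 6 libraries of the comparison (0.105) and without the wells numbered 1 (0.0873). RHBDD2-CKO differed from Non-target by 0.34 ± 0.23 (adjusted p = 0.285), and passed only in the fit without the trend (0.34, limma adjusted p = 0.0131).

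MAGEL2 (chr15:23643549-23647867, minus strand) stayed under the filter, and was likewise without a fragment in C9orf89-CKO, but was highest in MLPH-CKO. It had 0 fragments in all C9orf89-CKO wells, 8, 6 and 4 in Non-target, and 2, 9 and 7 in RHBDD2-CKO. MAGI2-CKO had 9, 22 and 35 fragments and MLPH-CKO 26, 52 and 47. Every MLPH-CKO well was above every Non-target well, while MAGI2-CKO well 1, at 0.107 FPKM, lay within the Non-target range. With no filter on low values, limma gave MLPH-CKO a log2 fold change of 1.71 ± 0.35 (adjusted p = 0.00485) and MAGI2-CKO 0.88 ± 0.35 (adjusted p = 0.114). C9orf89-CKO did not pass in that fit (−0.88, adjusted p = 0.139). Against the floor of C9orf89-CKO, MAGEL2 was at least 6.32-fold higher in Non-target and at least 38.3-fold higher in MLPH-CKO.

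NDN, SNRPN and SNURF, the other paternally expressed members of the domain, had no fragment in any library. All 1931 exon bases of NDN were its own, but only 66.4% of those of SNRPN and 30.7% of those of SNURF were, and the counting program dropped fragments that fell on exons of 2 genes. UBE3A, the ubiquitin ligase of Angelman syndrome, is imprinted in neurons and read from both copies elsewhere. It was 6.44, 4.98 and 5.78 FPKM in Non-target and 9.13, 8.01 and 7.82 FPKM in MAGI2-CKO, with 7.66, 7.63 and 7.96 FPKM in MLPH-CKO and 7.01, 6.97 and 6.77 FPKM in RHBDD2-CKO. All 3 clones were above Non-target in every well, by 0.53 ± 0.09, 0.44 ± 0.09 and 0.27 ± 0.09 on the log2 scale (limma adjusted p = 0.000348, 0.00203 and 0.0255), and the last call was lost in 6 of 25 alternatives. In C9orf89-CKO UBE3A was 5.56 FPKM ± 0.230, a log2 difference of −0.04 ± 0.09 (adjusted p = 0.796).

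In C9orf89-CKO the genes on 1 side of MKRN3 were low too. Within 5 megabases of its start 17 other tested genes were followed, a window chosen after the values were seen. In that clone 7 of them fell (41.2%, beside 26.0% of all tested genes), all among the 11 on the centromere side of MKRN3, where NIPA1, NIPA2, CYFIP1 and TUBGCP5 dropped to between 1.46 and 9.10 FPKM from 2.44 to 17.4 FPKM in Non-target. These 4 genes have log2 fold changes of −0.71, −0.94, −1.08 and −1.19 in that clone, beside 0.14 for HERC2 on the far side (adjusted p = 0.371). In MAGI2-CKO 4 of the 17 genes rose and 2 fell (35.3%, beside 36.1%), in MLPH-CKO 4 rose (23.5%, beside 30.1%), and in RHBDD2-CKO 6 rose and 1 fell (41.2%, beside 34.1%). The 50 nearest tested genes had a median of 0.42 in MAGI2-CKO and 0.43 in MLPH-CKO, close to the change of UBE3A and well under that of MKRN3. In C9orf89-CKO that median was −0.04 over 50 genes and −0.32 over the nearest 20, and in MLPH-CKO it was 0.26 over the nearest 20.

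**Figure D3:**
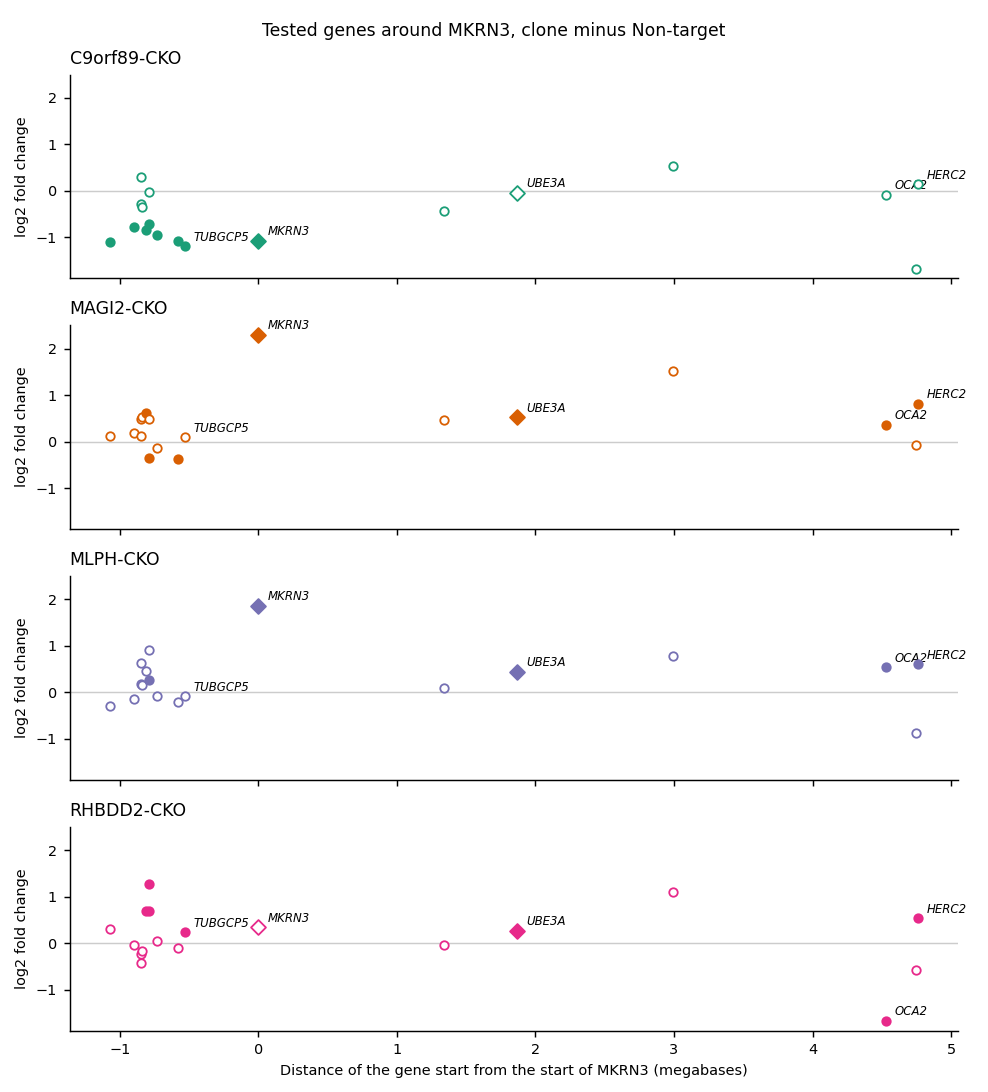
Log2 fold change against Non-target (y axis) for MKRN3 and 17 other tested genes within 5 megabases of its start, by distance from that start in megabases (x axis), 1 panel per clone. Filled symbols passed an adjusted p of 0.05 in limma and diamonds are imprinted genes of the list of 35. On the negative side 7 genes passed in C9orf89-CKO, all of them low, while MKRN3 is high in MAGI2-CKO and MLPH-CKO.

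In the GNAS domain of chromosome 20, the antisense RNA GNAS-AS1 (chr20:58818919-58850903, minus strand) was nearly absent from RHBDD2-CKO. That clone had 0, 0 and 2 fragments, against 38, 44 and 23 in Non-target, 38, 31 and 23 in MAGI2-CKO, 27, 18 and 26 in MLPH-CKO and 11, 15 and 14 in C9orf89-CKO. No RHBDD2-CKO well reached the lowest well elsewhere. Its ratio to Non-target was 0.0181, with an exact 95% interval of 0.00217 to 0.0672 for the fragment counts, and limma gave a log2 fold change of −2.60 ± 0.31 (adjusted p = 3.99e-05). C9orf89-CKO was also lower than Non-target (0.213 and 0.594 FPKM, −1.10 ± 0.31, adjusted p = 0.0186), a call lost without its well 1 or with a pseudocount of 0.01. Without the wells numbered 1 GNAS-AS1 did not reach the filter. With all wells it passed only through wells of Non-target and MAGI2-CKO, so its p-values are not independent of the filter. Only 56.9% of the exon bases of GNAS-AS1 belong to it alone, and without strand its RNA and that of GNAS cannot be told apart where they overlap.

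GNAS, which encodes the stimulatory G protein alpha subunit on the other strand, was at 79.4, 119 and 110 FPKM in Non-target and 64.3, 82.7 and 80.8 FPKM in RHBDD2-CKO. Well 1 was the lowest of its group in all 5 groups. With all wells and no replicate block GNAS passed in no clone (log2 fold changes −0.14 to −0.43, adjusted p from 0.114 to 0.62), with an unadjusted p of 0.0494 in RHBDD2-CKO alone under 0.05. With all wells and the well number as a block it was lower in RHBDD2-CKO, MLPH-CKO and C9orf89-CKO (limma adjusted p = 0.000192, 0.00124 and 0.00203) and did not pass in MAGI2-CKO (adjusted p = 0.0728). Without the wells numbered 1 it was lower in all 4 clones, with log2 fold changes of −0.49 in RHBDD2-CKO, −0.39 in MLPH-CKO, −0.30 in C9orf89-CKO and −0.16 in MAGI2-CKO (limma adjusted p = 0.00034, 0.00105, 0.0044 and 0.0435). The 50 genes nearest to GNAS-AS1 had medians of −0.08 to −0.11 in the 4 clones.

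Among the regulators of insulin and IGF signalling, GRB10 (chr7:50590063-50793462, minus strand), an adaptor that inhibits the insulin receptor, was highest in Non-target at 12.4, 13.9 and 14.6 FPKM. It was 6.88, 7.38 and 7.23 FPKM in MAGI2-CKO, 9.48, 10.2 and 9.93 FPKM in MLPH-CKO, 8.63, 10.2 and 10.8 FPKM in RHBDD2-CKO and 9.78, 11.9 and 12.1 FPKM in C9orf89-CKO. The Non-target wells were above all clone wells, and the MAGI2-CKO wells were below all others. The log2 fold changes were −0.92 ± 0.10, −0.46 ± 0.10 and −0.46 ± 0.10 in MAGI2-CKO, MLPH-CKO and RHBDD2-CKO, with limma adjusted p of at most 0.0266 in all 25 alternatives. In C9orf89-CKO it was −0.28 ± 0.10 with an adjusted p of 0.0491, a call lost in 15 of 25 alternatives, in which Non-target no longer stood apart for this gene.

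IGF2R, the receptor that carries IGF2 to lysosomes, was split between 2 low clones and the rest. It was 11.3, 10.2 and 12.0 FPKM in Non-target, 6.96, 7.15 and 7.50 FPKM in MAGI2-CKO and 7.64, 7.69 and 7.37 FPKM in RHBDD2-CKO. C9orf89-CKO had 11.6, 11.9 and 10.9 FPKM and MLPH-CKO 10.3, 11 and 11.4 FPKM. The falls of −0.63 ± 0.07 and −0.55 ± 0.07 (limma adjusted p of at most 0.00509 over all alternatives) lay beside a median of −0.52 for the 50 nearest genes in MAGI2-CKO (−0.22 over 100) and of 0.11 in RHBDD2-CKO. IGF2R imprinting varies between people.

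IGF2 and H19, the growth factor and the non-coding RNA that share enhancers on chromosome 11, were barely transcribed. H19 had 5, 5 and 4 fragments in Non-target, 2, 6 and 6 in C9orf89-CKO, 9, 0 and 5 in MAGI2-CKO, 0 in all MLPH-CKO wells and 0, 0 and 1 in RHBDD2-CKO. IGF2 had 5 fragments over the Non-target wells, 23 in C9orf89-CKO, 19 in MLPH-CKO, 2 in RHBDD2-CKO and 3 in MAGI2-CKO, all on 1 of its 2 identifiers. These counts were uncertain, since 25.0% of the exon bases of the first IGF2 identifier and 9.98% of the second were free of overlap. Without the filter H19 in MLPH-CKO (−0.99 ± 0.29, adjusted p = 0.0394) and IGF2 in C9orf89-CKO (0.52 ± 0.15, adjusted p = 0.0404) passed the threshold, at levels of at most 0.16 FPKM in any library.

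Of 18 genes listed for IGF signalling, which include GRB10 and IGF2R, 13 were tested. In C9orf89-CKO 4 rose and 3 fell (53.8% of the 13, beside 26.0% of all tested genes), in MAGI2-CKO 4 and 5 (69.2%, beside 36.1%), in MLPH-CKO 5 and 3 (61.5%, beside 30.1%) and in RHBDD2-CKO 3 and 5 (61.5%, beside 34.1%). Of the receptors, IGF1R was 6.42 FPKM ± 0.508 in Non-target and rose in MLPH-CKO, to 8.03 FPKM ± 0.879 (0.32 ± 0.09, limma adjusted p = 0.022), with 7.67 FPKM ± 0.734 in RHBDD2-CKO (adjusted p = 0.0538), and INSR had group means of 2.72 to 3.22 FPKM with adjusted p of 0.0606 or more. The binding protein IGFBP5 fell to 3.60 FPKM in C9orf89-CKO and rose to 19.7 FPKM in MAGI2-CKO from 8.01 FPKM (−1.13 and 1.29). The adaptor IRS1 rose in all 4 clones, with log2 fold changes of 0.38 in RHBDD2-CKO, 0.96 in MLPH-CKO, 0.92 in C9orf89-CKO and 0.90 in MAGI2-CKO.

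SGCE, epsilon-sarcoglycan of the muscle membrane complex, shares its promoter region with PEG10 on chromosome 7. It was 0.600, 0.653 and 0.699 FPKM in Non-target and 0.385, 0.306 and 0.348 FPKM in MAGI2-CKO, below all wells of the other groups. The change was −0.75 ± 0.18 in MAGI2-CKO (limma adjusted p = 0.006), and 0.22 in MLPH-CKO, 0.09 in RHBDD2-CKO and −0.03 in C9orf89-CKO without passing. PEG10, a retrotransposon-derived gene, had 46 fragments over the Non-target wells, 64 each in RHBDD2-CKO and MLPH-CKO, 44 in MAGI2-CKO and 43 in C9orf89-CKO, and each clone overlapped with Non-target. The homeobox gene DLX5 further along the arm fell in RHBDD2-CKO (4.93 to 3.73 FPKM, −0.40, adjusted p = 0.0473), a call lost in 15 of 25 alternatives.

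The chromosome 7 neighbours of these genes were lower in MAGI2-CKO too. The 50 nearest genes had a median log2 fold change of −0.65 around GRB10 (34 fell, 2 rose), −0.57 around SGCE and PEG10 and −0.52 around DLX5. In the other clones the same neighbours lay between −0.17 and 0.03. GRB10 and SGCE were therefore 0.27 and 0.18 below their neighbours in MAGI2-CKO, and DLX5 was 0.33 above. The value for DLX5 depended on 1 well: it was −0.19 with all wells and −0.36 without MAGI2-CKO well 2 (limma adjusted p = 0.0499).

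**Figure D4:**
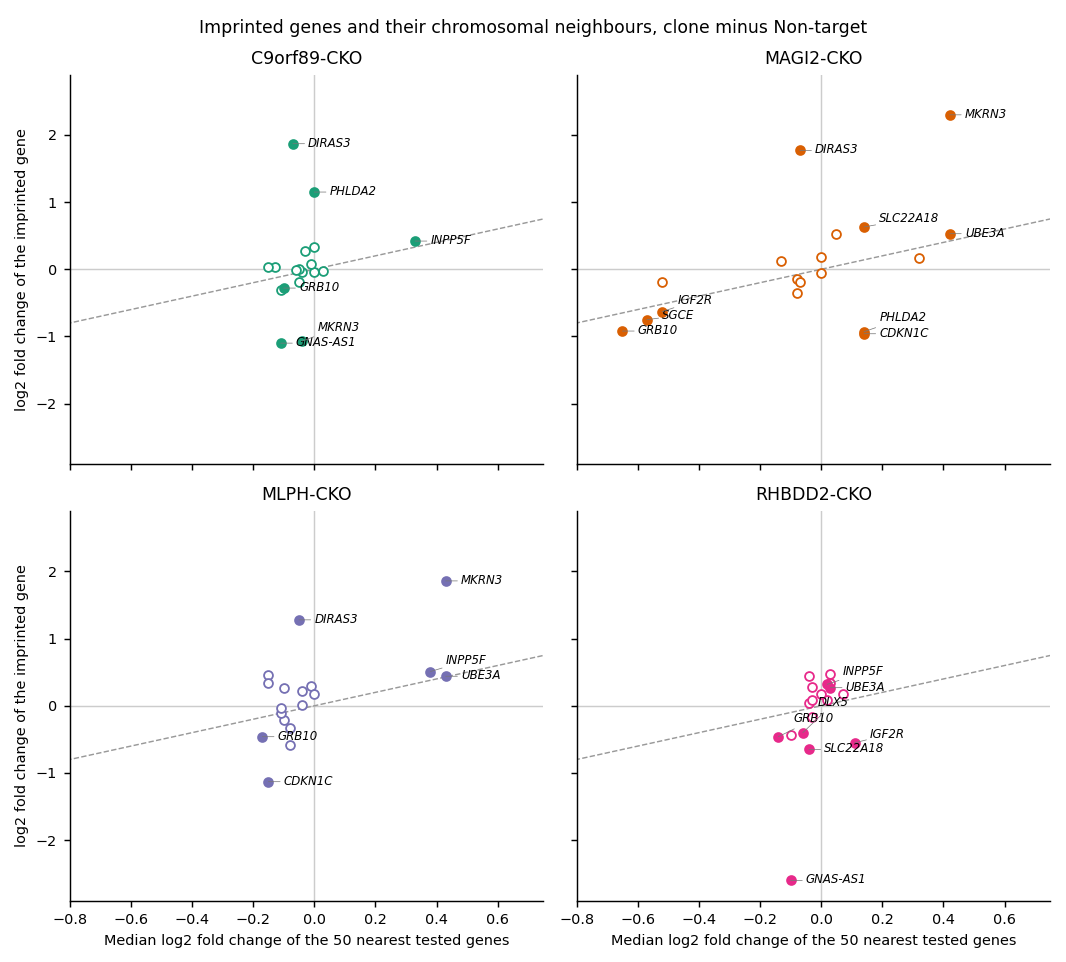
Log2 fold change of each tested imprinted gene against Non-target (y axis) and the median log2 fold change of its 50 nearest tested genes (x axis), 1 panel per clone. Filled and named points passed an adjusted p of 0.05 in limma, and the dashed line marks equal values. In MAGI2-CKO, GRB10, SGCE and IGF2R lie near the line at the left, while MKRN3, DIRAS3, PHLDA2 and CDKN1C lie away from it.

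DIRAS3, a RAS-related GTPase with growth-suppressing action and a paternally expressed gene of chromosome 1, was low in Non-target and raised in 3 clones. Its promoter is shown because the gene lay far from its neighbours, again with CG in capitals (chr1:68050578-68050877, minus strand, GRCh38.p14, 21 CG).
DIRAS3: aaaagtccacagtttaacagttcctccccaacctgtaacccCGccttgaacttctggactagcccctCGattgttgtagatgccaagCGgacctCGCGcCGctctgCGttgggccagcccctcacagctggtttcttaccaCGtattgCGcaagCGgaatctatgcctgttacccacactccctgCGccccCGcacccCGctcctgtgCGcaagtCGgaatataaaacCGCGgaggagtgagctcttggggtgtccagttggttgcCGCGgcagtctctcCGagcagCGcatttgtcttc
At least as many CG were found in 39.5% of all promoters of that length. DIRAS3 had 3, 3 and 3 fragments in Non-target (0.0917, 0.0950 and 0.0838 FPKM), 16, 22 and 25 in C9orf89-CKO, 22, 21 and 22 in MAGI2-CKO and 14, 15 and 12 in MLPH-CKO. RHBDD2-CKO had 9, 2 and 8 fragments and overlapped with Non-target. On the log2(FPKM + 0.1) scale DIRAS3 rose by 1.87 ± 0.30 for C9orf89-CKO, by 1.77 ± 0.30 for MAGI2-CKO and by 1.28 ± 0.30 for MLPH-CKO (limma adjusted p = 0.000574, 0.000518 and 0.00598), with 0.48 ± 0.30 in RHBDD2-CKO without passing. DIRAS3 entered the test through wells of C9orf89-CKO and MAGI2-CKO only, so its p-values, here and in the alternatives, are not independent of the filter. When RHBDD2-CKO well 2 was left out, that clone passed as well (0.85, limma adjusted p = 0.0216). The adjusted p was at most 0.012 in C9orf89-CKO and 0.0161 in MAGI2-CKO over 24 alternatives, and 0.0611 in MLPH-CKO without the wells numbered 1. The 50 nearest genes had medians between −0.07 and 0.03.

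TGCCGC, the core of the motif read by the imprint protector ZFP57, was searched on both strands of the RefSeq promoters. It overlaps the CG shown, since it contains 1. Of 49 windows for 20 members, some of which overlap each other, 22 held it (44.9%), beside 16.7% of all 35116 promoters. The same window was counted for both SNRPN and SNURF. By member, 14 of the 20 had a match, and 15 members had no window. The shares were not matched for CG content, so no enrichment is read from them. The DIRAS3 window held 2 matches, and the MKRN3 and MAGEL2 windows held none.

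INPP5F, a phosphoinositide phosphatase of chromosome 10, was 2.74, 2.5 and 2.55 FPKM in Non-target and 3.57, 3.91 and 3.74 FPKM in MLPH-CKO, with no overlap. It rose by 0.42, 0.51 and 0.32 in C9orf89-CKO, MLPH-CKO and RHBDD2-CKO, beside neighbour medians of 0.33, 0.38 and 0.02. GNAS, L3MBTL1, NNAT, BLCAP, PLAGL1 and ZDBF2 passed against Non-target in no clone in the fit of all wells without a block, but each of them except NNAT passed under some alternative. L3MBTL1 passed in MAGI2-CKO without the trend (0.53, limma adjusted p = 0.035), with voom (0.61, adjusted p = 0.0177) and without C9orf89-CKO well 1 (0.53, adjusted p = 0.0302). With the well number as a block, GNAS passed in 3 clones as above, PLAGL1 in RHBDD2-CKO (0.18, limma adjusted p = 0.0323, and 0.0313 to 0.0498 in 5 other alternatives) and ZDBF2 in C9orf89-CKO (0.27, adjusted p = 0.0459). Without the wells numbered 1, BLCAP was lower in C9orf89-CKO (−0.22, limma adjusted p = 0.0281) and in MLPH-CKO (−0.30, adjusted p = 0.0066), and without well 1 of MLPH-CKO alone or of RHBDD2-CKO alone it also passed in both (adjusted p from 0.0132 to 0.0495), as it did in MLPH-CKO with a mean of at least 1 FPKM as the filter (0.0481). NNAT, a neuronal proteolipid in an intron of BLCAP, was spread over 0.124 to 0.774 FPKM with overlap between all groups. PLAGL1, the growth-suppressing factor ZAC1, ranged from 7.11 to 9.49 FPKM, and its MLPH-CKO wells were 0.29 ± 0.07 below those of RHBDD2-CKO (adjusted p = 0.00421). ZDBF2 was lower in MAGI2-CKO than in C9orf89-CKO by 0.46 ± 0.10 (3.48 and 4.83 FPKM, limma adjusted p = 0.00527).

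The listed members of 2 domains gave hardly any RNA detectable at this depth. PEG3 and ZIM2 of the PEG3 domain, and MEG3, MEG8 and DLK1 of the DLK1-MEG3 domain, had no fragment in any library, and RTL1 had 6 in all. Other genes of the DLK1-MEG3 domain, named after their values were seen, did give fragments: DIO3 had 10 in Non-target, 6 in RHBDD2-CKO, 51 in MLPH-CKO, 28 in MAGI2-CKO and 38 in C9orf89-CKO. BEGAIN averaged 0.316 FPKM in Non-target, 0.275 in C9orf89-CKO, 0.0869 in RHBDD2-CKO, 0.156 in MLPH-CKO and 0.335 in MAGI2-CKO. For a group, 0 fragments allows a level of up to 3 fragments over its wells. The genes around PEG3 moved: the 50 nearest tested genes had medians of 0.70 in RHBDD2-CKO, −0.54 in C9orf89-CKO, −0.67 in MLPH-CKO and −0.73 in MAGI2-CKO. These medians kept their sign but not their size with other numbers of genes: over the nearest 20 they were 0.31, −0.76, −0.96 and −1.10, and over the nearest 100 they were 0.23, −0.31, −0.25 and −0.17, in the same order. Around MEG3 the median was 0.36 in MAGI2-CKO. MEST and NAP1L5 had 42 and 9 fragments in all libraries, and KCNK9, a potassium channel gene, had 88 fragments. For these 3 genes limma without the filter gave adjusted p of 0.281 or more in every clone.

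**Figure D5:**
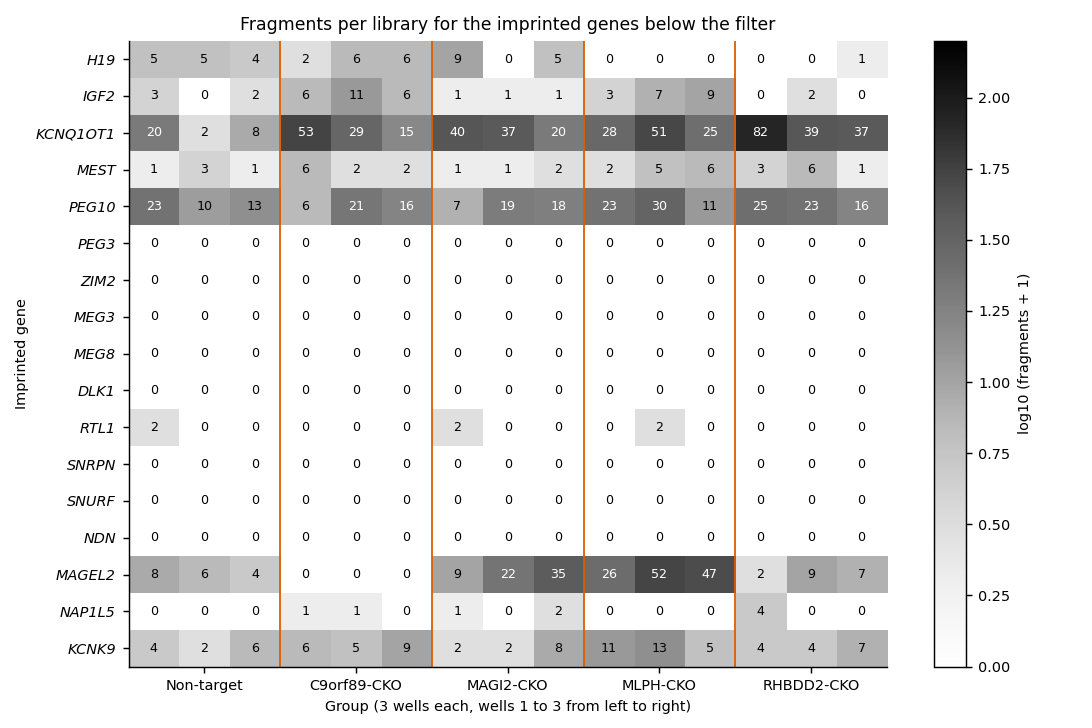
Fragments per library (number in each cell, shade on a log10 scale of fragments + 1) for the 17 imprinted genes below the filter (rows) in the 15 libraries (columns, grouped by clone). Of these, 8 are at 0 everywhere, MAGEL2 is at 0 in C9orf89-CKO, and H19 is at 0 in MLPH-CKO.

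Other imprinted genes were counted from a second list of 79, of which 76 were found in the tables and 29 tested. In C9orf89-CKO 7 rose and 5 fell (41.4%), in MAGI2-CKO 6 and 8 (48.3%), in MLPH-CKO 7 and 10 (58.6%) and in RHBDD2-CKO 11 and 1 (41.4%), beside the shares of all tested genes given above. Medians were 0.06, −0.13, −0.10 and 0.20. FAM50B rose in all 4 clones, from 7.38 FPKM to 12.6 FPKM in MAGI2-CKO and 14.1 FPKM in RHBDD2-CKO. TP73, the p53 relative, rose to 3.98 FPKM in C9orf89-CKO and 3.23 FPKM in MLPH-CKO from 1.87 FPKM (1.05 ± 0.11 and 0.76 ± 0.11). It averaged 2.7 FPKM in MAGI2-CKO and 2.8 FPKM in RHBDD2-CKO, with every well of both above every Non-target well. ZNF264, in the zinc finger cluster near PEG3, fell from 1.58 to 0.473 FPKM in MAGI2-CKO (−1.56 ± 0.14), and fell by 0.78 and by 0.98 in C9orf89-CKO and MLPH-CKO, while it rose in RHBDD2-CKO (0.43, limma adjusted p = 0.0268). PON2, near SGCE, fell by 0.53 in MAGI2-CKO.

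The keepers of the imprint were read from a list of 38 genes, 27 of them tested. In C9orf89-CKO 2 rose and 3 fell (18.5% of the 27, beside 26.0% of all tested genes), in MAGI2-CKO 4 and 4 (29.6%, beside 36.1%) and in MLPH-CKO 2 and 6 (29.6%, beside 30.1%). In RHBDD2-CKO 8 rose and 4 fell (44.4%, beside 34.1%). The genes described next were named whatever their change, and they do not stand for the direction of the list. DNMT1 and UHRF1 fell in RHBDD2-CKO, where more of the listed genes rose than fell. DNMT1, the methyltransferase that copies the mark, was 38.4, 41.3 and 41.4 FPKM in Non-target and 27.5, 33.9 and 32.8 FPKM in RHBDD2-CKO (−0.37 ± 0.09, limma adjusted p = 0.00534), and the other 3 clones averaged 38.8 to 40.5 FPKM. UHRF1, its guide to replicated DNA, was 54.2 FPKM ± 3.71 in Non-target and fell by 0.26 in C9orf89-CKO, by 0.51 in MLPH-CKO and by 0.56 in RHBDD2-CKO (adjusted p = 0.00661, 5.1e-05 and 2.07e-05). ZNF445, a zinc finger protector of imprints, was 2.82 FPKM ± 0.389 in Non-target and fell by 0.69 in MLPH-CKO, by 0.44 in MAGI2-CKO and by 0.37 in C9orf89-CKO (adjusted p = 0.000733, 0.0102 and 0.033), with 1.70 FPKM ± 0.0154 in MLPH-CKO. ZFP57 was at 0 in every library. TRIM28, its partner, averaged 235 to 257 FPKM in the 5 groups and the insulator protein CTCF at most 11.8 FPKM, with adjusted p of 0.214 or more in every clone. TRIM28 was lower in well 1 of each group (162 to 199 FPKM) than in wells 2 and 3 (259 to 296 FPKM). Its adjusted p values are for all wells without a block, so that drop is part of the spread behind them. A fit of TRIM28 without those wells is not given here. The part of these genes in the levels of the imprinted genes was not tested.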

How the data were processed

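RNA of HEK293T clones was sequenced after a kit that does not mark strand. Per the submitters' processing notes, the tools were HISAT2 2.0.5, featureCounts 1.5.0-p3 and DESeq2. The authors deposited 1 table of normalized values per library with no unit named, read here as FPKM: each value multiplied by the GENCODE 29 exon length of its gene came out as a whole number of steps, within 0.05, with the step fixed for the library. The step gave the fragments and the depth. Fragments on exons of more than 1 gene were not counted.

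Genes with at least 0.5 FPKM in 3 libraries (16175) were fitted on log2(FPKM + 0.1) in limma 3.58.1 (R 4.3.3, trend, all 15 libraries), with Benjamini-Hochberg adjustment over all of them and a threshold of 0.05. No batch term was used. On simulated data for MAGI2-CKO minus Non-target with 16175 genes, 184 of 200 genes changed 4-fold were called in the right direction, and 5 unchanged genes were called. The simulated wells were independent, with 1 fixed spread and no effect of the well number. These libraries differ in that, so the rates may not hold for them. Neighbours were the 50 tested genes nearest by midpoint, imprinted genes left out. Of the genes outside the list of 35, the knocked-out genes, DNMT1, UHRF1, TRIM28, ZNF445, ZFP57, CTCF, IGF1R and INSR were named whatever their change. The others were named by size of change within their list unless stated. The members, lists and rules were chosen with earlier results of these data known. Alternatives changed the filter, pseudocount, normalization, trend, number of neighbours, libraries fitted, replicate block and voom, or left out wells. RNA of the UE7T-9 line was not analysed here, and 1 gene near MKRN3 is not reported here.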

Additional observations from a re-analysis of the deposited data

How the results depend on the processing

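No called result changed direction. The calls for CDKN1C, SGCE and IGF2R kept their side of the threshold in every alternative that tested them. With only the 6 libraries of a comparison, 3 members passed in RHBDD2-CKO, 5 imprint regulators passed in that clone, 4 in MLPH-CKO and 5 in MAGI2-CKO, and 5 IGF signalling genes in MLPH-CKO and 4 in RHBDD2-CKO, where 25.7% of all tested genes passed in RHBDD2-CKO, 22.1% in MLPH-CKO and 31.9% in MAGI2-CKO. With a mean of at least 1 FPKM as the filter, 3 of 12 members passed in C9orf89-CKO, beside 29.4% of 12533 genes. The cause was not tested, except that fewer members are tested under that filter.

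Members that set Non-target apart fell to 0 with no filter, quantile normalization, no trend or only 6 libraries, and were 2 without the wells numbered 1. Those that set C9orf89-CKO apart were 0 with a mean of at least 1 FPKM, only 6 libraries or a pseudocount of 1, and 2 with voom. Those that set RHBDD2-CKO apart were 1 with no filter, a mean of at least 1 FPKM, only 6 libraries, a pseudocount of 1 or without the wells numbered 1. Without MKRN3, GNAS-AS1 and DIRAS3, an alternative chosen after seeing the data, 3 members passed in C9orf89-CKO, none set that clone apart (0), and 1 set RHBDD2-CKO apart.

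Leaving out 1 well at a time gave 3 to 7 members in RHBDD2-CKO (3 without Non-target well 2, 4 without RHBDD2-CKO well 1 or well 3), and 4 to 7 in C9orf89-CKO, beside 4185 to 5632 and 3213 to 4343 of all tested genes. Regulators ranged over 6 to 13 in RHBDD2-CKO, 5 to 8 in MLPH-CKO and 4 to 8 in MAGI2-CKO, and IGF signalling genes over 4 to 7, 5 to 9 and 5 to 8 in C9orf89-CKO, MLPH-CKO and RHBDD2-CKO. All tested genes past the threshold ranged over 3816 to 5016 in MLPH-CKO and 4696 to 5950 in MAGI2-CKO. Members that set Non-target apart ranged from 0 to 1 and those that set RHBDD2-CKO apart from 0 to 2. Leaving out all 5 wells numbered 1 together gave 8 members, 16 regulators and 10 IGF signalling genes in RHBDD2-CKO, and 11 regulators in MLPH-CKO, beside 43.0% and 38.1% of all tested genes.

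The labels give wells only a number. Deviations of same-numbered wells had a median correlation of 0.0856 over 30 pairs (0.001 to 0.312), against −0.0887 over 60 pairs with different numbers, and 12 of 15 libraries were closest to their own number. All 10 pairs of wells numbered 1 were above 0.1 (0.128 to 0.312, median 0.212), while the medians were 0.0383 for wells numbered 2 and 0.0795 for wells numbered 3. Since some pairs were under 0.1, the numbers were not taken to pair the wells. That cutoff was a choice, and the main fit keeps what same-numbered wells share, clearest for wells numbered 1, within its spread. With the replicate block, 10 members passed in RHBDD2-CKO, 9 each in MAGI2-CKO and MLPH-CKO and 8 in C9orf89-CKO of the 18, beside 43.5%, 44.3%, 38.9% and 35.4% of all tested genes, 9 regulators passed in C9orf89-CKO, and 2 members set C9orf89-CKO apart. The block added calls for GNAS in 3 clones, PLAGL1 in RHBDD2-CKO, ZDBF2 in C9orf89-CKO, SLC22A18 in MLPH-CKO (adjusted p = 0.0433, limma) and PHLDA2 in MLPH-CKO and RHBDD2-CKO. At this depth, levels near 3 fragments over a group could not be told from 0.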
